A study of Paralichthys olivaceus with 2 samples.

Results

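The arrays carried 180 probes with PN codes for candidate small RNAs, beside 263 probes for known miRNAs of zebrafish or pufferfish (names that start with dre, fru or tni) and 544 candidates with PC codes. A total of 97 PN-coded probes, of 987 probes in all, had a target that neither contained nor lay within the target of a known miRNA on the array. They are described here as the non-nested PN candidates, and the other 83 PN-coded probes were nested with a known target. Candidate targets were 17 to 23 nt long with a median of 22 nt. The RNA was that of Japanese flounder (Paralichthys olivaceus), from whole larvae collected as 5 larvae per tube, at 17 days post hatching (dph), a pre-metamorphic stage, and at 29 dph, a mid-metamorphic stage. The labels give no treatment or genotype that distinguishes the stages. Each stage has 1 array, so that stage differences are values without replicates and could not be tested. Errors are SDs over the 3 spots of a probe and show only the spread within an array.

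miRNAs are short RNAs that guide the silencing of target mRNAs, mainly through the seed, bases 2 to 8 from the 5′ end. A precursor hairpin can release slightly shifted ends, and a shift of the 5′ end moves the seed. Related genes in a genome often encode miRNAs that differ at few bases outside the seed. In flatfish, metamorphosis turns a symmetric swimming larva into an asymmetric bottom dweller, with wide changes in muscle, skin and skeleton. In whole larvae a lower level can come from fewer cells of a type or from less RNA per cell, which cannot be told apart here.

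The rule excludes nesting only, and 36 of the 97 candidates proved to be close relatives of known targets. Each of these lay within 2 edits (substitutions or gaps, with the shorter target placed anywhere along the longer) of a known miRNA target on the array, 31 of them at 1 edit. The label that sets these probes apart from known miRNAs therefore holds for nesting but not for similarity. The other 61 candidates lay 3 or more edits away, 55 of them 5 or more. The close relatives are called near-known candidates and the rest distant candidates below. Only known targets on the array were compared, so a distant candidate may still match a known miRNA that the array lacks. Among the near-known candidates 9 were shifted along the known target with no mismatch in the overlap, 26 carried 1 or 2 substitutions and 1 needed a gap. The seed of 23 near-known candidates was that of the closest known target, and 13 had another seed. Of the 97 candidates, 26 shared a seed with any known probe, and only 2 of these were distant.

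Near-known targets, most of them bright, are shown in groups, each with the known target closest to it. The brightest candidate of all, PN193, is distant and is shown further below. Capitals mark bases that the pair does not share in place (on the line of a known target, with the first candidate under it), sequences run 5′ to 3′, and all are targets as deposited. The first group belongs to the muscle miRNAs miR-1 and miR-206, where candidates with small differences from a known target gave signals far apart.
miR-206: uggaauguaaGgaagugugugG
PN237: uggaauguaaAgaagugugug
miR-1: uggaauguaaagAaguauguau
PN230: uggaauguaaagCaguauguau

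The second group belongs to miR-199*, the strand of a connective-tissue miRNA precursor that the array names with a star, and holds a shifted form and a shifted form with a substitution.
miR-199*: Uacaguagucugcacauugguu
PN169: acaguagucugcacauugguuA
PN205: acaguagucuAcacauugguuA

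The third group pairs other bright candidates with known targets. These are miR-214 of connective tissue, miR-92a of the clusters linked to cell proliferation, miR-205 of epithelia, let-7d and let-7a of developmental timing, miR-15b, miR-133a of muscle, and miR-454b.
miR-214: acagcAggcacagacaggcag
PN252: acagcGggcacagacaggcagU
miR-92a: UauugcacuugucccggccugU
PN49: CauugcacuugucccggccugA
miR-205: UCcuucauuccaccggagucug
PN231: cuucauuccaccggagucugUC
let-7d: ugagguaguugguuguauggUu
PN210: ugagguaguugguuguauggGu
let-7a: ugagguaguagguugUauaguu
PN104: ugagguaguagguugCauaguu
miR-15b: uagcagcgcaucaugguuugUA
PN186: uagcagcgcaucaugguuugA
miR-133a: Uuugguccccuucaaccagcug
PN178: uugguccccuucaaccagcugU
miR-454b: Uagugcaauauugcuuauaggg
PN89: agugcaauauugcuuauagggUC

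Signal was read as the mean density of each spot and set against 715 empty spots per array. Detection required 50% or more of a probe's spots to exceed the mean + 3 SD of the empty spots. This limit was 68.7 on the 17 dph array and 45.6 on the 29 dph array. The higher limit at 17 dph rests partly on 2 empty spots brighter than 100, while the empty medians were 45.6 and 38.8. At 17 dph 20 of the 97 candidates were detected, or 20.6%, against 41.7% of all probes and 25.9% of known miRNA probes. At 29 dph 44 were detected, or 45.4%, against 69.7% of all probes and 50.2% of known miRNA probes. All 20 candidates detected at 17 dph were also detected at 29 dph, 24 were detected at 29 dph only, and 53 were not detected on either array. Of all 987 probes, 412 were detected on both arrays, 276 at 29 dph only, 0 at 17 dph only and 299 on neither. That no candidate was detected at 17 dph only was thus not particular to the candidates. For comparison, 38 of the 83 nested PN-coded probes were detected at 17 dph and 66 at 29 dph.

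Detection differed between the near-known and the distant candidates. Of the 36 near-known candidates 15 were detected at 17 dph (41.7%) and 22 at 29 dph (61.1%). Of the 61 distant candidates 5 were detected at 17 dph (8.20%) and 22 at 29 dph (36.1%). The shares were 41.7% and 69.7% of all probes, and 25.9% and 50.2% of known miRNA probes. Near-known shares thus exceeded those of known miRNA probes but not those of all probes. The 6 candidates at 3 or 4 edits were not detected at 17 dph, and 2 of them were at 29 dph. These are counts on 1 array per stage, and probes with related targets are not independent of each other. The 5′ base also differed, in the targets themselves. A U, the commonest 5′ base among the known targets (152 of 263), opened 17 of the 36 near-known targets but 7 of the 61 distant ones.

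Known partners showed the same detection as the near-known candidates in 29 of 36 pairs. In 12 pairs both probes were detected on both arrays, in 6 both were detected at 29 dph only, and in 11 neither was detected. The pairs at background included relatives of miR-29a, miR-29b, miR-101b, miR-132* and miR-152. The 7 unlike pairs are named here after their values were seen. PN177 and PN215 were detected on both arrays where miR-181a* and miR-18c were on neither, and PN89 on both where miR-454b was at 29 dph only. PN208 was detected at 29 dph only where the islet miRNA miR-375 was on both. PN149, PN219 and PN230 were not detected, while miR-146a, miR-30e* and miR-1 were detected at 29 dph only. Some of these 7 depend on the limit. At 29 dph miR-181a* lay at 45.2, PN149 at 44.0 and miR-146a at 47.4, all near the limit of 45.6. PN208, at 57.1 on the 17 dph array, was under the limit of 68.7 but over the 99th percentile of the empty spots there, 54.5. Levels of different probes depend on how each binds, so densities are given side by side without ranking a pair.

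Differences between stages were computed on normalized log2 signals, after background correction and quantile normalization over all probes. Differences are the 29 dph minus the 17 dph log2 signal. To be called higher or lower at 29 dph, a candidate needed detection on either array, a difference of 1 or more in size, and spots of the arrays that did not overlap. Of the 44 detected candidates 2 were called higher, 12 lower and 30 neither. Over all 688 detected probes 12.6% were called higher and 12.1% lower, against 4.55% and 27.3% of the detected candidates. Of the 688, 446 were PC-coded probes, with shares of 14.6% and 7.40%. The shares were 9.09% and 17.4% of the detected known miRNA probes, and 12.1% and 22.7% of the detected nested PN-coded probes. A lean to lower calls was thus not particular to the candidates. The median log2 difference was -0.43 for the detected candidates and -0.40 for the detected nested PN-coded probes. It was -0.26 for the detected known miRNA probes and 0.050 for all detected probes. The scale moves these directions. Without normalization 11 candidates were higher and 0 lower, with a median of 0.36, while all detected probes then had a median of 1.59. In raw density, 18 of the 20 candidates detected on both arrays were brighter at 29 dph, as were 384 of all 412 probes detected on both. Over these 20 candidates the median ratio of 29 to 17 dph was 2.19. It was 2.66 for known miRNA probes, 2.69 for nested PN-coded probes, 6.65 for PC-coded probes and 5.24 for all probes detected on both. PC-coded probes made up 286 of those 412. A negative difference is thus relative to the rest of the array, where most detected probes were PC-coded. Of the 12 lower candidates 10 had a higher raw density at 29 dph, and PN49 and PN165 had a lower one. Among the 10, PN145 and PN177 had ratios of only 1.03 and 1.07, and their raw spots overlapped between the arrays.

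Both higher candidates were near-known, which made 9.09% of the 22 detected near-known candidates, against 12.6% of all detected probes. PN237, which differs from miR-206 by G11A (position counted from the 5′ end of the known target) and by a missing last base, had the largest positive difference of the 97. Its density was 107 ± 11.9 at 17 dph and 3800.1 ± 140 at 29 dph, a ratio of 35.4. The spots of the 2 arrays lay far apart, at 93.5 to 115 and at 3710 to 3962. On the normalized scale the log2 signal was 8.05 ± 0.19 at 17 dph and 10.45 ± 0.054 at 29 dph, a difference of 2.40. It was positive in all 10 ways of scaling and background correction compared, from 2.06 to 4.97.

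The known muscle miRNAs lay on both sides of PN237. miR-206 had densities of 1653 ± 52.0 and 10711 ± 254, a ratio of 6.48 and a normalized difference of 0.22. miR-1, from which PN237 differs by A17G and A21G and by a missing last base, had densities of 46.7 ± 4.2 and 7729 ± 431. It was below the detection limit at 17 dph, so that it was at least 21.9-fold higher at 29 dph on the normalized scale. The difference of PN237 was larger than that of miR-206 by 2.18 on the log2 scale, the widest positive gap among the 12 pairs detected on both arrays. PN230 differs from miR-1 by A13C alone and shares its seed. Its density was 39.99 ± 2.7 at 17 dph and 42.9 ± 2.4 at 29 dph, below the detection limit on both arrays. At 29 dph its spots, at 40.1 to 44.4, lay above the empty median of 38.8 but not above the brightest empty spot (44.7). How far a miRNA binds a probe made for a close relative was not tested in any pair.

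PN205, the other higher candidate, had a density of 93.5 ± 2.0 at 17 dph and 2700.1 ± 70.1 at 29 dph, a ratio of 28.9. Its normalized log2 difference was 2.13, positive in all 10 scalings, from 1.74 to 4.64. Its target starts at the second base of miR-199* and carries G12A in the numbering of miR-199*. The miR-199* probe had densities of 113 ± 14.5 and 3317 ± 96.3, with a ratio of 29.4 and a difference of 2.10. PN169, with the same start as PN205 but with the bases of miR-199*, was already bright at 17 dph. Its density was 725 ± 48.4 at 17 dph and 6198 ± 178 at 29 dph, a ratio of 8.55. The normalized difference of PN169 was 0.16 (neither higher nor lower), lower by 1.93 than that of miR-199*. PN169 was called higher without normalization, at 3.07, and with scaling to known probes, at 1.51. PN169 and miR-199*, identical over their overlap, thus differed by more between stages than PN205 and miR-199*, which differ at 1 inner base and by 0.032 on the log2 scale. The other strand, miR-199, had a difference of -0.62.

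Of the 12 lower candidates 8 were near-known, or 36.4% of the 22 detected near-known ones. The other 4 were 18.2% of the 22 detected distant candidates, against 12.1% of all detected probes. PN49 was the lowest of the 12. It differs from miR-92a at both ends, by U1C and U22A, and from miR-25 at inner bases, by U14C and U18C. Its density was 684 ± 43.2 at 17 dph and 370 ± 23.9 at 29 dph. The spots at 29 dph (348 to 396) all lay below those at 17 dph (637 to 722). PN49 was 1 of 2 candidates, of the 20 detected on both arrays, whose density was lower at 29 dph, with a ratio of 0.541. Over all probes detected on both arrays, 384 of 412 were brighter at 29 dph. Its normalized difference was -3.32, negative in all 10 scalings, from -4.04 to -0.85. The miR-92a probe had densities of 934 ± 142 and 444 ± 38.8, a ratio of 0.476 and a difference of -3.50. The miR-25 probe had a ratio of 2.23 and a difference of -1.37, so PN49 lay close to miR-92a and away from miR-25. All 3 have the same seed.

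PN252 followed its partner closely. It differs from miR-214 by A6G, which lies in the seed, and by 1 added base. Its density was 1283 ± 77.9 at 17 dph and 3180.4 ± 203 at 29 dph, which made it the second brightest candidate at 17 dph. The normalized difference was -1.53, against -1.56 for miR-214 with densities of 1968 ± 135 and 4326 ± 203. PN178, which starts at the second base of the muscle miRNA miR-133a, had densities of 191 ± 19.02 and 447 ± 48.0. Its difference of -1.19 lay beside -1.34 for miR-133a. Without normalization PN252 turned to 1.30 and PN178 to 1.17.

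PN231 and PN186 were lower than their partners in relative terms. PN231 starts at the third base of miR-205, an epithelial miRNA, and had a density of 465 ± 30.6 at 17 dph and 747 ± 15.2 at 29 dph. Its normalized difference was -2.00, against -0.75 for miR-205, whose densities were 110.3 ± 14.2 and 281 ± 32.6. PN186 differs from miR-15b of the pufferfish by U21A and a missing last base, and had densities of 289 ± 19.04 and 896 ± 13.2. It was called lower at -1.08, while miR-15b, at 77.1 ± 4.4 and 252 ± 10.3, had a difference of -0.20. In raw density the ratios of that pair were close, 3.10 and 3.27. PN186 turned to 1.59 without normalization and to 0.024 when the arrays were scaled to known probes, and PN231 turned to 0.67 without normalization.

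The remaining lower near-known candidates were dimmer. PN204, which starts at the second base of the sensory-organ miRNA miR-183, had densities of 115 ± 9.9 and 235 ± 18.1. Its difference of -1.01 was just past the threshold, while that of miR-183, at -0.92, was just short of it. PN215 differs by U13A and a missing last base from miR-18c, a relative of miR-17 family members. It had densities of 93.2 ± 7.9 and 151 ± 15.4 and a difference of -1.05, while the miR-18c probe stayed at 41.1 and 37.6. PN177, with A20G relative to miR-181a*, had densities of 79.4 ± 9.4 and 84.7 ± 3.1 and a difference of -1.14.

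The let-7 relatives were neither higher nor lower on the quantile-normalized scale. PN210 was called higher without normalization (2.91) and with scaling to the median of known probes (1.35), and PN104 without normalization (2.25). PN210, with U21G relative to let-7d, had densities of 186 ± 13.1 and 1500.0 ± 82.5 and a difference of 0.27. let-7d itself had densities of 194 ± 19.9 and 1464 ± 162 and a difference of 0.17. PN104, with U16C relative to let-7a, had densities of 119 ± 6.6 and 617 ± 36.3 and a difference of -0.062, beside 0.039 for let-7a. All 4 probes share the let-7 seed, and the candidates stood 0.095 above and 0.10 below their partners on the log2 scale. PN89, shifted by 1 base from miR-454b and longer at the 3′ end, had densities of 134 ± 2.1 and 559 ± 39.9 and a difference of -0.38. Without normalization PN89 was called higher, at 1.95. The miR-454b probe lay near background, at 44.1 and 49.4.

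Across the 12 pairs in which both probes were detected on both arrays, 8 pairs had differences within 0.5 of each other on the log2 scale and 9 within 1. The gap, candidate minus known, ranged from -1.93 (PN169) to 2.18 (PN237) with a median of 0.032, and the sign was the same in 11 of 12. These gaps were computed on the quantile-normalized scale alone. Raw ratios can lie closer, as for PN186 and miR-15b (3.10 and 3.27, with a gap of -0.88). Several pairs share a partner or a family, as PN169 and PN205 do with miR-199*, so that the pairs are not independent.

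Among the distant candidates PN193 stood apart in brightness. Its target is shown with the PC-coded targets of the array that contain it or lie within it.
PN193: ccugucugagggucgcuu
PC163: cuacgccugucugagggucgcuu
PC100: uacgccugucugagggucgcuu
PC47: cgccugucugagggucgcuu
PC166: cugucugagggucgcuu
PC494: ugucugagggucgcuu
PC74: cugucugagggucgcu

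PN193 was the brightest of the 97 on both arrays, at 50658 ± 3450 (17 dph) and 40589.6 ± 946 (29 dph). The next brightest candidate was PN252 at 17 dph, at 1283, and PN169 at 29 dph, at 6198. The 6 nested PC-coded probes, with targets of 16 to 23 nt, had densities of 46295 to 48527 at 17 dph and 24532 to 31251 at 29 dph. All 7 were dimmer at 29 dph, with a ratio of 0.801 for PN193 and of 0.530 to 0.645 for the PC-coded probes. The normalized difference of PN193 was -0.13 and ranged from -3.50 to 0.32 over the 10 scalings. It was negative in 9 of them and positive in 1, and its size depended on the scaling. Its label does not say which RNA it comes from, and the labelling step, poly(A) tailing, is not specific to miRNAs.

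Only 4 other distant candidates were detected on both arrays, and their targets are shown with the seed in capitals. None of the 22 detected distant targets had the seed of a known probe on the array.
PN144: uGCAGUCCaugggcauauacac
PN94: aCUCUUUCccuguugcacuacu
PN145: gCCCUUUUucuguugcacuacu
PN84: aGUUCUUCacuggcaagcuuua

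PN144 was called lower, with densities of 231 ± 1.5 and 373 ± 52.7 and a normalized difference of -1.72. PN94 had densities of 128 ± 42.4 and 216 ± 14.0 and a difference of -1.14, and its 17 dph spots were uneven, from 78.9 to 156. PN145 had densities of 110.2 ± 11.5 and 113 ± 19.97 and a difference of -1.56. These 3 turned positive without normalization, to 0.65, 0.75 and 0.047. PN84 was neither on the quantile-normalized scale, with densities of 74.5 ± 3.5 and 210 ± 11.2 and a difference of -0.30. Its call moved with the scale. Without normalization PN84 was called higher, at 1.34. When probes detected at both stages set the scale, PN84 was called lower, at -1.08 by their median and -1.57 by their 75th percentile. On the quantile-normalized scale none of the 22 detected distant candidates was called higher, against 12.6% of all detected probes. The fourth lower candidate of this class, PN165, was detected at 29 dph only. Its density was 64.5 ± 3.7 at 17 dph, just under the limit, and 48.4 ± 1.4 at 29 dph, and its difference was -1.09.

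PN94 and PN145 belong to a set of 5 distant candidates that all end in the same 12 bases, in capitals, while their 5′ parts differ. No known or PC-coded target on the array, and no nested PN target, holds this run.
PN94: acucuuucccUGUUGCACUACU
PN145: gcccuuuuucUGUUGCACUACU
PN194: gcuuugacaaUGUUGCACUACU
PN142: gcuuugacgaUGUUGCACUACU
PN115: gcucugacuuUGUUGCACUACU

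Members of the set differed in detection. PN94 and PN145 were detected on both arrays. PN194 and PN142, which differ from each other at 1 base and share a seed, were detected at 29 dph only, at densities of 48.8 ± 3.8 and 48.3 ± 2.4. PN115 lay at 47.3 ± 1.7 and 40.7 ± 0.36 and was not detected.

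In all, 21 candidates fell into 9 sets that share a run of 12 or more bases. In 5 of these sets the shorter target lay within the longer one, so that only length differed. PN34 and PN207 share 18 bases and U11G relative to the neural strand miR-9*, and PN34 extends 4 bases further.
miR-9*: uaaagcuagaUaaccgaaagu
PN34: uaaagcuagaGaaccgaaaguA
PN207: uaaagcuagaGaaccgaa

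PN34 had densities of 60.4 ± 6.1 and 143 ± 13.2 and PN207 of 46.2 ± 2.7 and 50.03 ± 4.1, both detected at 29 dph only. The miR-9* probe had densities of 51.0 and 279. PN84 and PN159 differ by A1C and A15U, numbered along PN84, and share a seed. PN159 was detected at 29 dph only, at 62.3 ± 4.9, against 46.2 ± 2.7 at 17 dph. PN217 and PN64, and PN136 and PN72, passed the limit on the 29 dph array alone. Their densities there were 47.2 to 54.8, close to the limit of 45.6, and 46.5 to 54.0 at 17 dph. PN37 was likewise close to the 29 dph limit, at 46.9 ± 0.94, and was brighter at 17 dph, at 50.8 ± 2.7.

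The 24 candidates detected at 29 dph only were dim. Their densities were 46.2 to 64.5 at 17 dph and 46.9 to 143 at 29 dph, with medians of 51.6 and 54.1. At 29 dph 14 of them lay under 60, and 6 exceeded the 17 dph limit of 68.7. The spots at 29 dph all lay above those at 17 dph for 12 candidates and all below for 3 (PN37, PN59 and PN165), and they overlapped for 9. The empty spots were dimmer at 29 dph, so that a density just above the limit there would not pass at 17 dph. No lower bound of the fold change exceeded 1 for any of the 24. Of the near-known ones, PN213 (U1A relative to the lymphocyte miRNA miR-150) had densities of 51.8 ± 2.0 and 108 ± 14.0.

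The 53 candidates not detected on either array comprised 14 near-known and 39 distant ones. Their densities lay between 39.99 and 65.3 at 17 dph and between 38.1 and 44.0 at 29 dph, with medians of 44.9 and 40.9, close to the empty medians of 45.6 and 38.8. PN107, which is among them, had uneven spots at 17 dph, from 43.5 to 99.9. At this signal over background a small amount of these RNAs was not detectable, which does not show that they are absent.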

How the data were processed

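Small RNA from whole larvae, collected as 5 larvae per tube at 17 and at 29 dph, was hybridised to 1 single-colour array per stage. Per the labels' protocols, RNA extracted with Trizol was size-filtered, poly(A)-tailed and joined to a tag for staining, here with Cy5. The deposited array tables give 1 mean density, a linear intensity, for each of 3968 spots, and no background step was evident from the values. In the authors' deposited series table each probe has 1 processed intensity. Its array medians are 37.1 and 41.0, with rank correlations of 0.997 and 0.999 with the densities. It is linear and runs the same way, while no source used here states its background and scaling steps. The 3 spots of each probe lay in 1 row, 10 columns apart. With 1 array per stage, precision between stages is unknown.

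Background correction used normexp with an offset of 50 on all spots (limma 3.58.1, R 4.3.3). Values were log2-transformed, quantile-normalized over the probe spots of both arrays and averaged over the 3 spots. No p-value was computed. Similarity used edlib 1.3.9.post1 edit distances, in Python 3.11.15 with pandas 2.3.3, NumPy 2.4.6 and SciPy 1.17.1. For candidates detected on 1 array, the bound set the bright signal against the higher of the probe's own and the lowest detected signal on the dim array. The calling step was tried on simulated arrays, both built from the levels and empty spots of the 29 dph array. These lacked the difference in scale between the real arrays, so that the trial cannot show how far the calls depend on scaling. The median spot CV of detected candidates was 6.63% at 17 dph and 6.31% at 29 dph.

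The members and lists were chosen with earlier results of these data known. Named candidates were the 10 brightest of each array, up to 8 per direction called and detected on both arrays, and up to 6 per direction detected on 1. The brightest of each overlapping set, the brightest with a known seed, and those most like a known target were added. PN59, PN64, PN107, PN115, PN136, PN142, PN149, PN159, PN194, PN204, PN207, PN208, PN213, PN219 and PN230 were named after their values were seen.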

Additional observations from a re-analysis of the deposited data

How the results depend on the processing

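With 1 array per stage and spots as the only repeats, every value is limited by the signal over background and by the number of arrays. No paired analysis was possible because each stage has 1 array. Counts of detected candidates stayed within 1.5 times under the other detection limits and spot rules, from 20 to 29 at 17 dph and from 42 to 53 at 29 dph. Without the near-known candidates they were 5 and 22, with 0 called higher and 4 lower. Counts in such a subset can only be equal or lower. Leaving out candidates nested with PC-coded probes, or counting overlapping candidates once, moved no count past 1.5 times.

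The 2 higher calls held in number under all alternatives except no normalization (11 higher, 0 lower, median 0.36), scaling to the median of known probes (4 higher, 26 lower, median -1.21) and the subset above. The lower calls depended most on the scale. They numbered 37 after scaling to the median of probes detected at both stages (median difference -2.06), 38 after scaling to their 75th percentile (-2.55), 27 with plain background subtraction (-1.48), 27 in the authors' series table (-1.23), 6 with quantile normalization over known probes and 1 at a threshold of 4-fold. The median was -0.25 with cyclic loess, -1.03 over candidates detected on both arrays and -0.13 with no filter on dim probes. The cause of these shifts was not tested. Without normalization the called candidates PN144 (0.65), PN145 (0.047), PN177 (0.11), PN178 (1.17), PN186 (1.59), PN204 (0.95), PN215 (0.63), PN231 (0.67), PN252 (1.30) and PN94 (0.75) turned positive, and so did PN186 (0.024) with scaling to known probes. An alternative added after seeing the data, which took out a linear GC trend, left 2 higher and 10 lower. The slope taken out was small and positive, at 0.0025 log2 units per percent GC. Among the 20 candidates detected on both arrays, GC and the log2 difference ran in opposite directions (Spearman -0.61). Taking out a positive slope cannot remove such a negative trend, so whether the lower calls depend on GC was not tested.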

Other observations

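A GC content of at least 45% was found in 10 of the 12 lower candidates, in 20 of the 30 that were neither and in 30 of all 44 detected candidates. Both higher candidates were under it, at 36.4% and 38.1%. Over the 20 candidates detected on both arrays the rank correlation (Spearman) of GC with the log2 difference was -0.61, and over the 44 detected on at least 1 array it was -0.41. Over all 412 probes detected on both arrays it was 0.085. These correlations describe probes that share arrays and, in part, target families, so that they are not independent points.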
